A study of Mus musculus with 7 samples.

Results

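Shc adaptors and the docking proteins that work with them carry signals from receptor tyrosine kinases to Ras. The 10 genes described here are the 4 Shc paralogs Shc1, Shc2, Shc3 and Shc4, the adaptor Grb2, the docking proteins Gab1 and Frs2, the exchange factor Sos1, and the tyrosine phosphatases Ptpn9 and Ptpn11. They were found by symbol, and all 10 were present among the 24421 gene symbols of every count file and passed the filter on low counts. They were chosen as a pathway family, with earlier results of these data known, so a count of changed members is a description of the family.

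RNA of cerebellar tissue from C57BL/6 mice was sequenced in 7 libraries. The 4 knockout libraries, titled CicKO, carried En1-Cre and the genotype Cicflox/flox. The 3 control libraries, titled Wildtype, had the genotype Cicflox/+, so the controls also carried a floxed Cic allele, and no Cre was named for them. En1 is expressed in the embryonic midbrain and hindbrain, and Cre driven by it deletes floxed DNA in those cells and their descendants, so cells of other origin keep Cic. The labels give no age and do not say that every library came from a different animal, and p-values measure the spread between these libraries. Since Cre is named in the knockouts alone, its own effect and the loss of Cic cannot be told apart.

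An activated receptor kinase carries phosphorylated tyrosines, which Shc proteins bind and on which they are themselves phosphorylated. Grb2 binds phosphorylated Shc or Frs2 and brings Sos1, which loads Ras with GTP and so starts the ERK cascade. Shc1 is widely expressed, whereas Shc2 and Shc3 are known as neuronal forms and Shc4 was described in melanoma, muscle and brain. CIC is a repressor that binds a short DNA octamer and is released from its targets when ERK is active, and the comparison asks which transcripts of this relay change without it.

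Of the members whose start regions could be read, 3 held a known CIC octamer within 250 bases before or 50 bases from an annotated start. For Grb2 this start lies inside the gene. These stretches are shown because the abundance of some of these transcripts changed. The octamers searched on both strands were TGAATGAA, TGAATGGA, TCAATGAA and TCAATGGA. They do not overlap one another within the stretches shown. Windows were those of RefSeq on GRCm38.p6, found for 9 members, all but Shc3. Each stretch runs 5′ to 3′ on the gene's strand, from 120 bases before the start site through the first 30 transcribed bases, and capitals mark the octamer.
Shc4: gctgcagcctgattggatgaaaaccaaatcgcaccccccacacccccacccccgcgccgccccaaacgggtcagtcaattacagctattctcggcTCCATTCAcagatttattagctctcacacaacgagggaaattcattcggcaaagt
Ptpn9: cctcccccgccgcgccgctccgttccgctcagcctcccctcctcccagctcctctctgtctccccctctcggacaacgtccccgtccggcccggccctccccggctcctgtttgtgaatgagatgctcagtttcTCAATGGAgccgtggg
Grb2: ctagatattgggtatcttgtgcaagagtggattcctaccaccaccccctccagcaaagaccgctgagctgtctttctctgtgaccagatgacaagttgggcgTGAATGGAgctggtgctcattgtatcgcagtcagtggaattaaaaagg

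The Shc4 stretch is chr2:125724119-125724268 on the minus strand, and its capitals are the reverse complement of TGAATGGA, beginning at position -25 when the start site is counted as 0. A further Shc4 match, TGAATGAA on the other strand, began at position 29, the last base of the stretch, and ran past its end. The Ptpn9 stretch is chr9:56994848-56994997 on the plus strand, with TCAATGGA at position 14. The Grb2 stretch is chr11:115699899-115700048 on the minus strand, with TGAATGGA at position -18, and a further annotated start of Grb2 had no match. In GENCODE M21 Grb2 runs from 115644045 to 115708597 on the minus strand. Both of its windows thus lie inside the gene, and its outermost start was not searched. No match was found in the windows of Shc1, Shc2, Gab1, Frs2, Sos1 and Ptpn11. Of all 32851 windows listed there, 3.84% held at least 1 of the octamers. Counted by gene, with any window, 3 of 9 members held one, against 3.93% of the 17224 genes of the count files with a window. A match is a run of letters, and binding was not measured here.

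The libraries held 102653765 to 121285349 gene counts each. Levels are given as CPM, counts scaled to a common library total, and 3 counts correspond to at most 0.0292 CPM, far below every member. Cic, the targeted gene, was lower in every knockout library, at 147, 146, 144 and 147 CPM against 216, 257 and 223 CPM in Wildtype 1 to 3 (log2 fold change -0.66, SE 0.0622, edgeR adjusted p = 0.00256). Markers of granule neurons and Purkinje cells were abundant in every library, with summed levels of 6099 to 7132 and 9275 to 13231 CPM. The libraries numbered 3 in both groups stood apart in choroid plexus transcripts, with Ttr at 8006 CPM in CicKO 3 and 5814 CPM in Wildtype 3 and at most 112 CPM in the other 5 libraries.

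Shc3, Shc4 and Ptpn9 rose in the knockout, and the other 7 members did not pass the test. Of the 10 members 3 were called higher, against 1.25% of the 16905 genes tested, and 0 were called lower, against 0.828% (in either direction 3 of 10 members and 2.08% of all genes). At an unadjusted p below 0.05, which 2741 of the 16905 genes reached, there were 3 higher and 0 lower members, and DESeq2 and limma-voom called the same 3 genes and none lower. The groups did not overlap for these 3 members and overlapped for the other 7, whereas 7.06% of all genes had every knockout library above every control. Values are CPM scaled by the trimmed mean of M values (TMM), tests are edgeR's quasi-likelihood F test, and p-values are adjusted over all genes tested by the Benjamini-Hochberg method. In whole tissue, more or fewer cells of a type and more or less RNA per cell cannot be told apart.

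**Figure D1:**
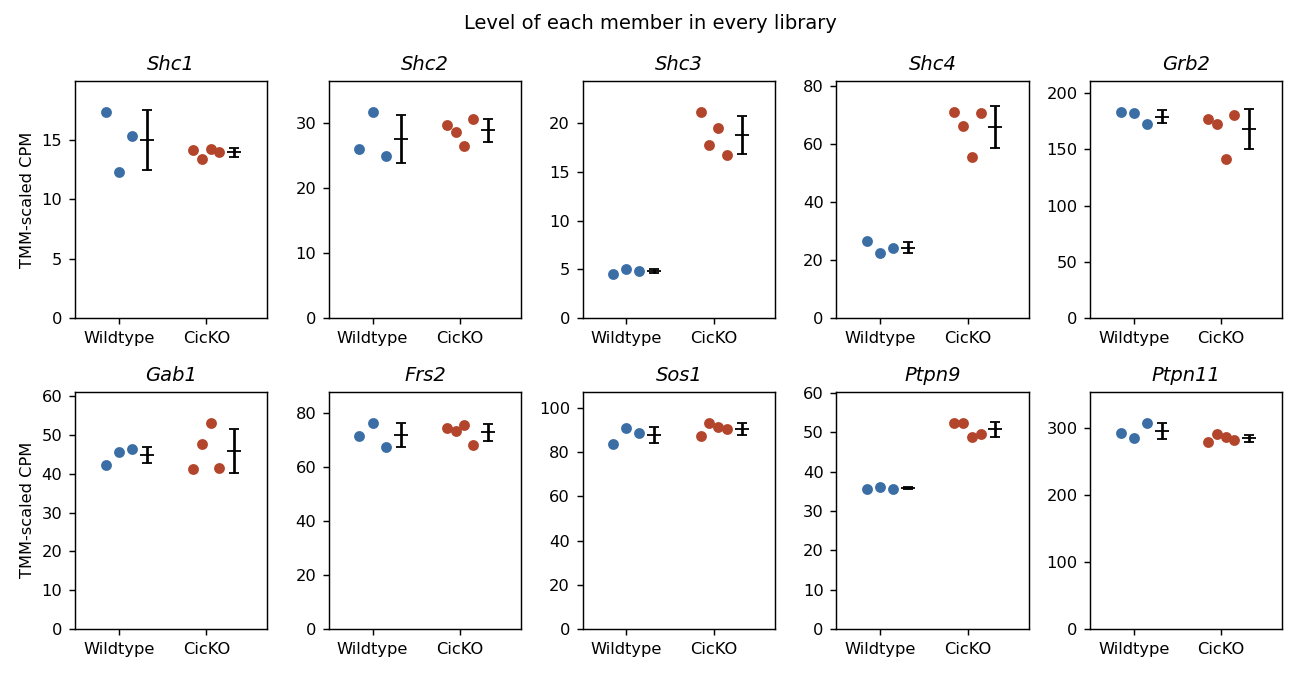
TMM-scaled CPM (vertical axes, each from 0) of the 10 members in the 3 Wildtype libraries (blue) and the 4 CicKO libraries (red), with the mean and SD beside each group. The red points lie above all blue points for Shc3, Shc4 and Ptpn9 and are mixed with them in the other panels.

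Among the Shc adaptors, Shc3 (chromosome 13, 51431041 to 51569419) had the largest fold change. Its level was 21.2, 17.7, 19.5 and 16.7 CPM in CicKO 1 to 4 and 4.57, 5.04 and 4.89 CPM in Wildtype 1 to 3. The lowest knockout library was thus more than 3 times the highest control. The fold was 3.89 (95% confidence interval 3.32 to 4.56, log2 fold change 1.96, SE 0.101, adjusted p = 0.00021). In these libraries Shc3 ranked 2 among the 16905 genes by p and 33 by the size of the increase.

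Shc4 (chromosome 2, 125627447 to 125724148) rose as well, from a higher starting level. It stood at 71.2, 66.4, 55.6 and 70.8 CPM in CicKO 1 to 4 and at 26.5, 22.4 and 24.3 CPM in the controls. CicKO 3 was the lowest knockout library and still more than 2 times the highest control. The fold was 2.70 (95% confidence interval 2.31 to 3.17, log2 fold change 1.44, SE 0.0995, adjusted p = 0.000831), and Shc4 ranked 6 by p. Exons of Shc4 share 527 of their 8263 bases with Eid1, a gene on the opposite strand, and the strand setting of the counting is not given in the sources used here. Eid1 itself was at 206 ± 13.0 CPM in the knockouts (SD, n = 4) and 245 ± 12.4 CPM in the controls (SD, n = 3). Its log2 fold change was -0.25 (SE 0.0621, adjusted p = 0.0864), and its groups did not overlap (highest knockout 224 CPM, lowest control 231 CPM). Of the 15 alternative settings described below, 1 called Eid1 lower, and its log2 fold change was negative in all 15. The part of reads over the shared bases in the Shc4 counts was not tested.

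Shc1 and Shc2 did not change detectably. Shc1 was at 14.1, 13.4, 14.3 and 14.0 CPM in CicKO 1 to 4 and at 17.4, 12.3 and 15.3 CPM in the controls. The knockouts lay inside the range of the controls, and the interval of the fold ran from 0.78 to 1.11 (log2 fold change -0.10, SE 0.109, adjusted p = 0.69). Shc2 was at 29.6, 28.5, 26.5 and 30.6 CPM in the knockouts and at 25.9, 31.6 and 24.9 CPM in the controls. Here too the groups overlapped, with an interval of the fold from 0.907 to 1.21 (log2 fold change 0.07, SE 0.091, adjusted p = 0.767). The intervals of both genes exclude folds as large as those of Shc3 and Shc4.

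**Figure D2:**
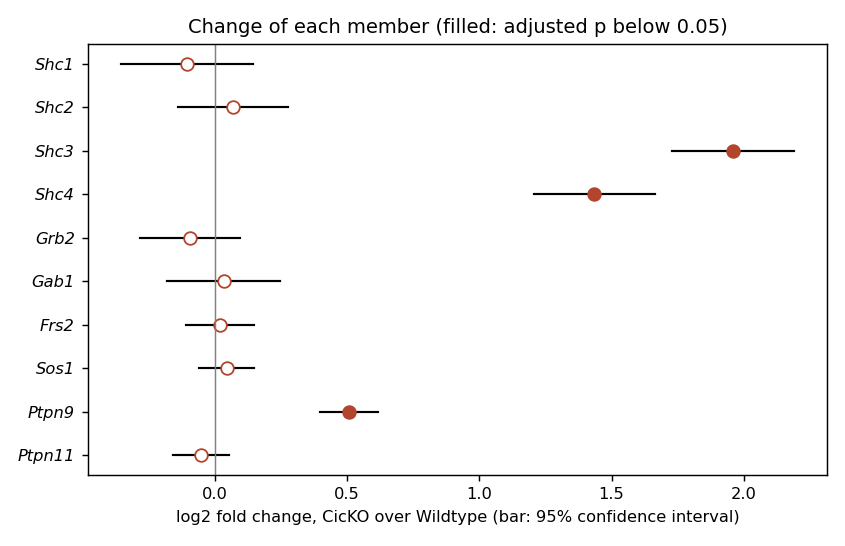
Log2 fold change of CicKO over Wildtype (horizontal axis) for the 10 members, with 95% confidence intervals as bars and called genes as filled points. Shc3 at 1.96, Shc4 at 1.44 and Ptpn9 at 0.51 lie clear of 0, and the intervals of the other 7 members include 0.

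The makeup of the Shc family differed between the groups. To compare the paralogs, each level was divided by the gene's exonic length in GENCODE M21, giving CPM per kb of exon. Summed over the 4 paralogs this level was 21.2, 19.5, 18.4 and 20.3 CPM per kb in the knockouts and 12.1, 11.8 and 11.3 CPM per kb in the controls. Shc2 held the largest share in the controls, 43.2 ± 5.33% (SD, n = 3), and Shc4 the largest in the knockouts, 40.1 ± 2.43% (SD, n = 4). Shc3 made up 8.99 ± 0.636% of the summed level in the controls and 20.7 ± 2.29% in the knockouts. The share of Shc4 went from 25.2 ± 1.94% to 40.1 ± 2.43%, and the shares of Shc1 and Shc2 were correspondingly lower at 12.5 ± 0.860% and 26.7 ± 0.820% in the knockouts. These shares are a description without a test. The length chosen moves their size: with the longest transcript in place of all exons, Shc3 held 7.99% and 18.0%, and Shc4 29.3% and 45.7%, in controls and knockouts.

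**Figure D3:**
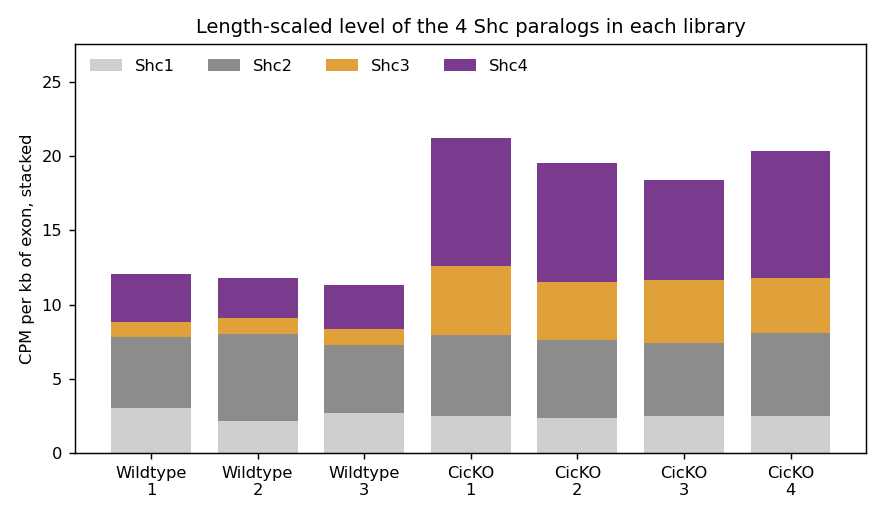
Length-scaled level in CPM per kb of exon (vertical axis, from 0), stacked over Shc1 to Shc4, in each of the 7 libraries. The CicKO bars reach 18.4 to 21.2 and the Wildtype bars 11.3 to 12.1, and the added height lies in the Shc3 and Shc4 segments.

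Grb2, Sos1 and the docking proteins Gab1 and Frs2 did not change detectably. Grb2, the adaptor that links Shc to Sos1, was at 177, 172, 141 and 180.4 CPM in the knockouts and at 183, 182 and 172 CPM in the controls. CicKO 3 was lower than the other 6 libraries, and the other knockouts overlapped the controls (log2 fold change -0.09, SE 0.0827, adjusted p = 0.624). The GTP exchange factor Sos1 was at 87.1, 93.3, 91.3 and 90.6 CPM against 83.8, 90.8 and 88.8 CPM. Its libraries overlapped closely, and the interval of the fold, 0.961 to 1.11, was among the narrower ones (log2 fold change 0.04, SE 0.045, adjusted p = 0.677).

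Gab1, a docking protein that recruits PI3 kinase and Ptpn11, was at 41.1, 47.6, 53.2 and 41.6 CPM in the knockouts and 42.3, 45.7 and 46.3 CPM in the controls. Knockout libraries lay on both sides of the controls, and the interval of the fold was 0.883 to 1.19 (log2 fold change 0.03, SE 0.0937, adjusted p = 0.897). Frs2, the docking protein of fibroblast growth factor and neurotrophin receptors, was at 74.3, 73.6, 75.5 and 68.3 CPM against 71.5, 76.5 and 67.5 CPM. It too overlapped, with an interval of 0.928 to 1.11 (log2 fold change 0.02, SE 0.0563, adjusted p = 0.893).

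Of the phosphatases, Ptpn9 rose and Ptpn11 did not pass the test. Ptpn9 (chromosome 9, 56994923 to 57062807) encodes a cytosolic tyrosine phosphatase with a lipid-binding domain that locates to secretory vesicles. Its level was 52.3, 52.4, 48.9 and 49.5 CPM in CicKO 1 to 4 and 35.7, 36.0 and 35.5 CPM in the controls. The spread within each group was small beside the gap between them. The fold was 1.42 (95% confidence interval 1.32 to 1.53, log2 fold change 0.51, SE 0.0476, adjusted p = 0.00256). An antisense transcript, Gm10658, shares 170 exonic bases with Ptpn9 and was at 0.669 ± 0.149 CPM in the knockouts (SD, n = 4).

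Ptpn11 encodes SHP2, a phosphatase that binds Gab1 and Frs2 and is needed for full ERK activation. It was at 279, 291, 286 and 281 CPM in the knockouts and at 293, 284 and 307 CPM in the controls. The groups overlapped, with an interval of the fold from 0.895 to 1.04 (log2 fold change -0.05, SE 0.0467, adjusted p = 0.627).

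Ordered by CPM per kb, the control cerebellum had Grb2 highest at 61.4 ± 2.05, then Ptpn11 at 39.3 ± 1.56 (SD, n = 3). Gab1, Sos1, Frs2 and Ptpn9 followed at 8.81, 8.29, 8.21 and 7.67, and each overlapped the next in this order. Shc2 came next at 5.07 ± 0.668, then Shc4 at 2.95 ± 0.245 and Shc1 at 2.66 ± 0.451, which overlapped each other, and Shc3 was lowest at 1.05 ± 0.0520. In the knockouts Grb2 and Ptpn11 kept the first places, at 57.5 ± 6.13 and 37.9 ± 0.671 (SD, n = 4). Ptpn9 came next at 10.9 ± 0.401, above Gab1, Sos1 and Frs2, and Shc4 at 7.99 ± 0.878 stood above Shc2. Shc3 at 4.10 ± 0.427 stood above Shc1, the lowest at 2.47 ± 0.0676. With the longest transcript as length, Shc4 came next after Grb2 and Ptpn11 in the knockouts, while Shc3 was still lowest in the controls and Shc1 in the knockouts.

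The genes next to the called members were read in the same fit. S1pr3 and Cks2 flank Shc3, Cep152 and Secisbp2l flank Shc4, and Snupn and Sin3a flank Ptpn9 among genes tested. None of the 6 was called by edgeR, and their log2 fold changes ran from -0.30 (Cks2, adjusted p = 0.411) to 0.32 (S1pr3, adjusted p = 0.289). S1pr3, which encodes a sphingosine phosphate receptor, ranged from 2.68 to 3.33 CPM among knockouts and from 2.20 to 2.62 CPM among controls. Its groups thus did not overlap, the interval of its fold ran from 1.01 to 1.54, and it was among the genes with an unadjusted p below 0.05. These values were read after the members' changes were known.

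Genes whose pattern over the 7 libraries was closest to a called member were found by the root mean square difference of mean-centred log2 CPM. For Shc3 they were the axonemal dynein gene Dnah8 (difference 0.158), the ETS factor Etv5 (0.188), the small MAF factor Maff (0.191) and B4galnt3 (0.224). For Shc4 they were the laminin chain gene Lama3 (0.0947), Hsd11b1 (0.126), which encodes an enzyme that regenerates active glucocorticoid, Hdc (0.151), the enzyme of histamine synthesis, and the receptor kinase inhibitor Spry4 (0.155). For Ptpn9 they were the PACAP receptor gene Adcyap1r1 (0.0285), Igf1r (0.053), Plxnc1 (0.0561) and Fam184b (0.0567). All 12 were called higher by edgeR, with log2 fold changes from 0.46 for Igf1r to 2.15 for Maff. The matching included the difference between the groups, so these calls follow from the choice of genes and are no separate result.

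Other genes of the receptor kinase relay were read from lists drawn up for this pathway. Their counts at an unadjusted p below 0.05 stand beside 2741 of 16905 over all genes. Among 33 tested adaptors and docking proteins outside the family, edgeR called 0, with 3 higher and 0 lower at an unadjusted p below 0.05, and their median log2 fold change was 0.02 against 0.00 over all genes. DESeq2 called 1 of them, Dok4, and limma-voom 0. Over all genes DESeq2 called 1170 and limma-voom 326, against 352 by edgeR, and the list counts below stand beside these. Dok4, a docking protein of the Dok family, was at 8.61 ± 0.390 CPM (SD, n = 4) against 6.71 ± 0.223 CPM (SD, n = 3), with an adjusted p of 0.0694 in edgeR. Grb7, an SH2 adaptor, had a log2 fold change of 0.30 (adjusted p = 0.175). Without CicKO 3 edgeR called both (adjusted p = 0.0441 for Dok4 and 0.036 for Grb7). Over all genes it called 842 without CicKO 3, against 352 with all libraries. Calls gained in this setting, here and in the lists below, stand beside that general gain.

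Of 29 receptor tyrosine kinases 1 was called higher and 0 lower by edgeR, with 5 higher and 2 lower at an unadjusted p below 0.05. DESeq2 called 4 higher, limma-voom 1, and both 0 lower. The called gene was Igf1r, the receptor of insulin-like growth factors, at 131, 128, 127 and 128 CPM in the knockouts against 87.9 to 98.0 CPM in the controls. All knockouts lay above all controls (log2 fold change 0.46, SE 0.0467, adjusted p = 0.00303). With the percentage of reads in no annotated gene as a covariate, Igf1r was not called (adjusted p = 0.0691), and neither was any other gene of the list. With the replicate number as a block, Alk was also called (log2 fold change 0.95, adjusted p = 0.0404, against 0.0933 without the block). Without CicKO 3, Met and Ntrk3 were called lower and Igf1r higher. The median log2 fold change of the list was 0.01.

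Among 23 Ras proteins, exchange factors and GTPase activators, 2 were called higher and 0 lower, and the median log2 fold change was -0.01. At an unadjusted p below 0.05 there were 2 higher and 2 lower, and DESeq2 and limma-voom called the same 2 and none lower. Both are GTPase activators, which switch Ras off. Rasa4 ranged from 68.0 to 75.2 CPM among knockouts and from 52.5 to 53.6 CPM among controls (log2 fold change 0.43, SE 0.0472, adjusted p = 0.0046). Nf1, the neurofibromin gene, ranged from 164 to 171 CPM and from 130 to 137 CPM in the same order (log2 fold change 0.32, SE 0.0411, adjusted p = 0.00884). Neither overlapped between the groups. With the same covariate neither was called (adjusted p = 0.0934 for Rasa4 and 0.103 for Nf1). Nf1 was not called without CicKO 1 (adjusted p = 0.0502) or Wildtype 3 (0.0541), and Rasgrf2 was called lower without CicKO 3.

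Of 15 other cytosolic tyrosine phosphatases edgeR called 0, with 4 higher and 1 lower at an unadjusted p below 0.05. DESeq2 called 1 higher and 1 lower, and limma-voom 1 higher and 0 lower. Ptpn5, the striatum-enriched phosphatase that acts on ERK, was at 57.8, 58.6, 94.1 and 55.7 CPM in CicKO 1 to 4 and at 32.3, 22.8 and 32.8 CPM in the controls. The groups did not overlap, and CicKO 3 was far above the other knockouts (log2 fold change 1.18, SE 0.23, adjusted p = 0.0561). Without CicKO 3 it was called at an adjusted p of 0.01. With the replicate block Ptpn5 (adjusted p = 0.0138) and Ptpn3 (log2 fold change -0.43, adjusted p = 0.0325, against 0.16 without the block) were called. The median log2 fold change over these phosphatases was 0.05.

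**Figure D4:**
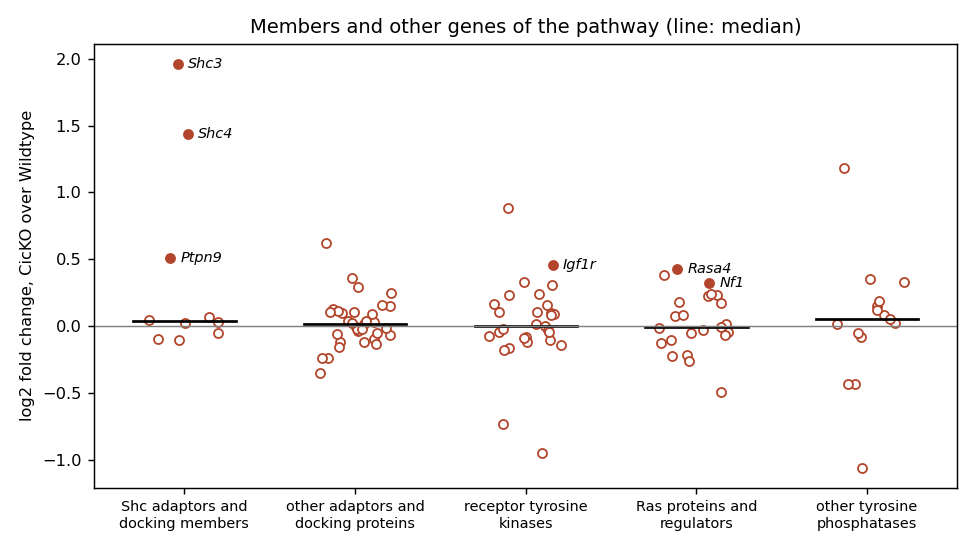
Log2 fold change of CicKO over Wildtype (vertical axis) of the 10 members and of the tested genes in 4 lists of the receptor kinase pathway, with called genes filled and named and the list median as a line. The medians lie between -0.01 and 0.05, and Shc3 at 1.96 and Shc4 at 1.44 are the highest points.

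Some glial markers were lower in the knockouts beside these changes, and most of those calls depended on the setting. Of 10 Bergmann glia and astrocyte markers Gdf10 and Aqp4 were called lower by edgeR and 0 higher. Of 10 oligodendrocyte markers Cldn11 was called lower, and of 8 oligodendrocyte precursor markers Olig1 was called lower. Over all genes tested 0.828% were called lower. At an unadjusted p below 0.05 the 3 lists had 6, 5 and 3 members lower and 0 higher. These counts stand beside 2741 of 16905 over all genes, in either direction. DESeq2 called 4, 3 and 2 members lower and 0 higher, and limma-voom called the same genes as edgeR. Over all genes DESeq2 called 1170 in either direction, against 352 by edgeR. The log2 fold changes were -0.59 for Gdf10, -0.42 for Aqp4, -0.83 for Cldn11 and -0.39 for Olig1. Negative values were found for 7, 10 and 6 members of the 3 lists, and for 8659 of the 16905 genes tested. Their summed levels were 6718 to 6921 against 6296 to 7246 CPM, 3861 to 6089 against 5165 to 6497 CPM, and 200 to 280 against 279 to 328 CPM, in knockouts against controls. With the replicate block Gfap (adjusted p = 0.00138), Mal (0.0463), Mobp (0.0143) and Bcas1 (0.00927) were also called lower. Gdf10 was called in all 15 alternatives, Aqp4 in 8, Cldn11 in 9 and Olig1 in 8. With the covariate the adjusted p was 0.166 for Aqp4, 0.198 for Cldn11 and 0.328 for Olig1. These 3 calls were also lost without both libraries numbered 3 and without CicKO 1, CicKO 4, Wildtype 1 or Wildtype 3 alone, and those of Aqp4 and Olig1 without Wildtype 2. The part of these cells in the change of Shc3, Shc4 and Ptpn9 was not tested.

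For the marker lists of granule neurons, Purkinje cells, microglia, endothelium, pericytes and fibroblasts, and choroid plexus, edgeR called 0 members. At an unadjusted p below 0.05 their counts were 1, 0, 0, 2, 0 and 0, DESeq2 called Etv1 and Slco1a4 among them, and limma-voom called 0. The 2 members of each with the smallest p were Etv1, Neurod1, Gad1, Itpr1, P2ry12, C1qc, Slco1a4, Kdr, Rgs5, Kcnj8, Otx2 and Slc4a5, with adjusted p from 0.0618 to 0.929. With the replicate block Slco1a4 (adjusted p = 0.049) and Slc4a5 (0.0107) were called higher. Without CicKO 3, the Purkinje cell markers Calb1, Ppp1r17 and Rgs8 and the granule neuron marker Etv1 were called higher. All 10 Purkinje cell markers (median log2 fold change 0.18) and all 8 endothelial markers (median 0.17) had values above 0, as Shc3, Shc4 and Ptpn9 did. Over all genes 8246 of 16905 did. The part of these markers' cells in the changes of Shc3, Shc4 and Ptpn9 was not tested. Summed levels of the granule neuron list, 6099 to 7132 against 6216 to 6921 CPM, overlapped between the groups, as did those of the other 5 lists.

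The calls of Shc3, Shc4 and Ptpn9 held under all 15 alternative settings, among them leaving out each library in turn. Their log2 fold changes ranged from 1.90 to 2.01, from 1.38 to 1.60 and from 0.49 to 0.52. Without both libraries numbered 3 the values were 1.95 (adjusted p = 0.000979), 1.505 (0.000402) and 0.52 (0.00774). The largest adjusted p-values, 0.0103, 0.0103 and 0.0432, came from a fit that also held each library's percentage of reads in no annotated gene. That percentage was 18.2% to 19.0% in the knockouts and 16.0% to 18.6% in the controls.

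**Figure D5:**
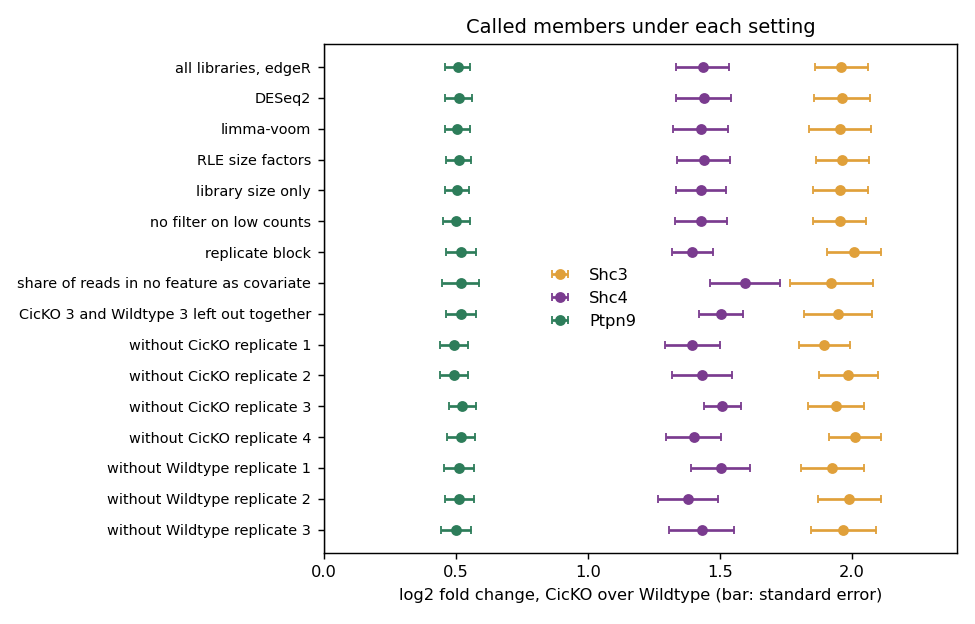
Log2 fold change of CicKO over Wildtype with its standard error (horizontal axis) for Shc3, Shc4 and Ptpn9 under the main setting (top) and 15 alternatives. Each gene keeps its place, Shc3 between 1.90 and 2.01, Shc4 between 1.38 and 1.60 and Ptpn9 between 0.49 and 0.52.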

How the data were processed

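Raw read counts for each gene symbol were deposited as 1 file per library. Per the submitters' processing notes, the tools were STAR 2.5.3a, HTSeq and DESeq2 and the build mm10. Gene annotation, strand setting and read filters: not given in the sources used here. The 5 HTSeq summary rows of each file stayed out of library sizes and tests: reads in no feature made up 16.0% to 19.0% of all entries, reads falling in several genes 1.27% to 1.37% and non-unique alignments 12.0% to 13.7%. The floor of 3 counts covers counting error only, because PCR copies carry no molecular identifiers, while the confidence intervals come from the fit and carry the spread between libraries. Any 2 replicates of 1 genotype showed 18.5 to 157 times the variance that sampling gives, and each counted as 1 replicate.

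Counts were filtered with filterByExpr, scaled by TMM and tested in edgeR 4.0.16 (R 4.3.3) with genotype as the only term, robust quasi-likelihood fits and a threshold of 0.05 on the adjusted p. Standard errors are the log2 fold change over the square root of F. The fit was tested on simulated data. DESeq2 1.42.0, limma-voom (limma 3.58.1), other scalings, no filter, a covariate and omitted libraries were alternatives. Same-numbered libraries of the groups correlated at 0.145, 0.288 and 0.713 in their deviations from group means, above the limit of 0.1 for pairing, though some pairs with different numbers did too (up to 0.319). The pairing comes only from these correlations, and the replicate block was an alternative, in which CicKO 4 has no partner and adds nothing to the difference.

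Positions, overlaps and lengths come from GENCODE M21 (GRCm38, which mm10 names as well), and promoter windows from RefSeq on GRCm38.p6. The members and lists were chosen with earlier results of these data known. Named are all members, Cic, the called members of each list up to 4 by smallest adjusted p (else the 2 with the smallest p), and for each called member the 4 closest genes of mean CPM at least 1, without unnamed gene models. Alk, Met, Ntrk3, Rasgrf2, Gfap, Mal, Mobp, Bcas1, Calb1, Ppp1r17, Rgs8, Ttr, Eid1, Gm10658 and the flanking genes were named after their values were seen. Pdgfra, Pdgfrb, Flt1, Tek and Kdr stand in both the receptor list and a marker list.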

Additional observations from a re-analysis of the deposited data

Results flagged for a closer look

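In 5 of 34 genes examined, 1 of the 4 knockout libraries lay far from the others, with a gap to its neighbour above Dixon's 95% critical share of the group's range; chance alone flags about 1 in 20 groups. None of the 10 members was among them. Grb7 was at 15.6 CPM in CicKO 3 and 19.0 to 19.1 CPM in the other knockouts (gap 0.955 of the range). Ptpn5 was at 94.1 CPM in CicKO 3 and 55.7 to 58.6 CPM in the others (0.924). The choroid plexus markers Otx2 (53.5 CPM in CicKO 3, ratio 0.96) and Slc4a5 (61.4 CPM, ratio 0.986) were highest in the same library. Slco1a4, an organic anion transporter of brain endothelium, was lowest in CicKO 2 at 45.1 CPM (0.848).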

How the results depend on the processing

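Of the 10 members, the same 3 were called under all 15 alternatives, and Cic was called lower in all of them. Replicate block: 514 genes were called against 352, and besides Alk, Ptpn5, Ptpn3, Gfap, Mal, Mobp, Bcas1, Slco1a4 and Slc4a5 it changed no other call among members and lists (Shc3 2.01, Shc4 1.40, Ptpn9 0.52). Over all genes 1170 were called by DESeq2 and 58 with the share of reads in no feature as a covariate (52 of them among the 352). When 1 library was left out, 86 (without CicKO 1) to 842 (without CicKO 3) were called. Members that were not called changed sign as follows. With that covariate the log2 fold changes were 0.17 for Shc1, -0.10 for Shc2, -0.043 for Gab1, -0.049 for Frs2 and -0.013 for Sos1, and without both libraries numbered 3 they were -0.020 for Gab1 and -0.039 for Frs2. Over single omissions they ran from -0.23 to 0.019 for Shc1, -0.045 to 0.082 for Gab1 and -0.022 to 0.068 for Frs2. Among other genes not called with all libraries, Cep152 turned to -0.063 with the covariate, Secisbp2l to 0.010 and Sin3a to 0.0098 with the block. Single omissions gave -0.065 to 0.023 for Secisbp2l, -0.052 to 0.011 for Sin3a, -2.11 to 0.034 for Otx2 and -1.92 to 2.998 for Slc4a5. The covariate ended the calls of Igf1r (adjusted p = 0.0691), Rasa4 (0.0934), Nf1 (0.103), Aqp4 (0.166), Cldn11 (0.198) and Olig1 (0.328), whose log2 fold changes were 0.41, 0.42, 0.33, -0.50, -0.85 and -0.37. The causes were not tested. Depth did not limit the members, each with over 500 counts in every library.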

Other observations

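The CIC octamers searched in the members' promoters were also counted over all tested genes with a RefSeq window. Of the 146 such genes called higher in the knockout, 25 (17.1%) held at least 1 of the 4 octamers, against 3 of 109 (2.75%) called lower and 358 of 12287 (2.91%) not called. These are counts of letters, with no test. Shc4, Ptpn9 and Rasa4 were among the genes called higher with an octamer, as were Maff and Hsd11b1, while Igf1r, Nf1, Dnah8, Etv5, B4galnt3, Hdc, Adcyap1r1, Plxnc1 and Fam184b were called higher with none in their windows. Shc3, Lama3 and Spry4 had no window. Grb2 held an octamer at a start inside the gene and was not called (log2 fold change -0.09, edgeR adjusted p = 0.624). Its outermost start was not searched.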
